A study of Mus musculus with 4 samples.

Results

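Collagen genes were followed through cultured ureters of newborn mice that carried or lacked functional *Pparg* in the epithelium and that were or were not treated with purmorphamine, an agonist of sonic hedgehog (SHH) signaling that acts on smoothened. The collagens were taken by their name on the array, which had to be Col, a number, the letter a and a number. This gave 44 genes with 69 probes among 29924 gene names, of which 11 encode fibrillar collagens, 8 collagens of basement membranes and 25 other collagens. Ureters of NMRI mice, an outbred stock, were explanted at P0 and kept in culture for 8 d. The 4 groups were control and *Pparg-cKO* ureters, each with DMSO and with 2 µM purmorphamine, and each group had 2 RNA pools. Control carried the label *Pparg* (fl/?), and the methods describe such controls as littermates without cre. *Pparg-cKO* was *Pax2-cre/+; Pparg* (fl/fl). *Pax2-cre* recombines in the nephric duct and its derivatives, which include the ureteric epithelium and the collecting ducts of the kidney. The deletion of exons 2 and 3 leaves a transcript for a truncated protein. Replicate 1 was a pool from males and replicate 2 a pool from females. Dyes were exchanged between them, so that sex and dye cannot be told apart. How many ureters a pool held is not given in the sources used here.

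Collagens are secreted proteins whose chains wind around each other in a helix, which requires a glycine at regular intervals along each chain. Fibrillar collagens assemble into the fibrils that give connective tissue its tensile strength, type IV collagen forms the network of basement membranes, and the remaining collagens attach to fibrils, form microfilaments or networks of their own or span the cell membrane. In the ureter, fibrillar collagens are made by the mesenchymal cells of the lamina propria, the smooth muscle layer and the adventitia, and type IV collagen lies under the urothelium and around smooth muscle cells and vessels. The glycine repeat can be read in the probes themselves. A run of at least 4 GGN codons, each encoding glycine, at a spacing of 9 bases was held by 4 of the 69 collagen probes (5.8%) and by 24 of all 39429 probes (0.0609%). These 4 probes are given in full because they show the helix that the collagens share. Capitals mark the GGN codons of the frame with the run, and the positions are those of the array annotation on mm9. The probe of *Col14a1* lies at chr15:55347733-55347792 on the plus strand, that of *Col15a1* at chr4:47283786-47283845 on the plus strand, that of *Col16a1* at chr4:129756457-129756516 on the plus strand and that of *Col25a1* at chr3:130270497-130270556 on the plus strand.
Col14a1: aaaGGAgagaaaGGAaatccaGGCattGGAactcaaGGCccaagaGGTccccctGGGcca
Col15a1: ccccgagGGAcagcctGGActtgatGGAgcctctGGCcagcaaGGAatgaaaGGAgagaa
Col16a1: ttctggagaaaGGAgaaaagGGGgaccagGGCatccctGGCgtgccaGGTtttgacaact
Col25a1: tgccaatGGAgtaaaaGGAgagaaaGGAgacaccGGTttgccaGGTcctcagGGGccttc

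On each of the 4 two-color arrays a DMSO pool was set against the purmorphamine pool of the same genotype and sex, and all 4 were on 1 slide. In a channel, 66.3% to 70.5% of spots exceeded background clearly and 0 were saturated. The labels name separate pools but not separate cultures beyond these, and p-values measure the spread between the pools. Values are normalized log2 intensities of the brightest probe tested of each gene, and a difference of 1 is a doubling. They compare a probe between pools, not a gene with another gene. A gene was called if limma gave an adjusted p under 0.05 over the 27066 probes tested, which stood for 20231 genes. Targets of SHH signaling bore out the treatment labels over both genotypes. *Ptch1*, which encodes the SHH receptor, rose by 1.31 on the log2 scale (limma adjusted p = 0.0054), and *Hhip*, an antagonist and target of the pathway, by 1.76 (adjusted p = 0.0070). *Pparg* itself was 0.51 higher in *Pparg-cKO* with DMSO and 0.88 higher with purmorphamine, neither called, and its probe does not check the genotype because the transcript persists. Of the collagens, 41 were tested and 39 were above background in all 8 channels. *Col2a1*, *Col19a1* and *Col9a3*, which encode chains of the cartilage fibril and collagens attached to fibrils, were not tested because their probes were at background in most channels.

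With purmorphamine more collagens rose than fell. Over both genotypes 14 of 41 collagens rose and 3 fell, whereas 5.99% of all genes tested rose and 7.51% fell, so that the share of collagens that fell was close to that of all genes. The median log2 fold change of the collagens was 0.29, against 0.01 for all genes. Of the 41 collagens, 20 were higher with purmorphamine on all 4 arrays, 5 were lower on all 4 and 16 went both ways. How many of all genes went the same way on all 4 arrays was not counted, so these numbers have no share beside them. The RNA came from whole ureters, in which more cells of a type and more RNA per cell cannot be told apart. By class, among fibrillar collagens 2 of 10 rose and 1 fell (median 0.32), among basement membrane collagens 1 of 8 rose and 1 fell (median -0.04), and among the other collagens 11 of 23 rose and 1 fell (median 0.43). A difference between the classes was not tested. Of the 17 calls, 9 held when any 1 of the 4 arrays was left out, namely those of *Col6a5*, *Col8a1*, *Col9a2*, *Col11a1*, *Col14a1*, *Col16a1*, *Col23a1*, *Col24a1* and *Col25a1*. *Col6a3* and *Col4a4* lost the call whichever array was left out. That of *Col8a2* and *Col4a1* was lost without replicate 1 of control, that of *Col10a1* without replicate 2 of *Pparg-cKO*, and those of *Col1a1*, *Col9a1* and *Col12a1* without 2 or more of the arrays in turn. The count was 11 without replicate 2 of *Pparg-cKO*.

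**Figure D1:**
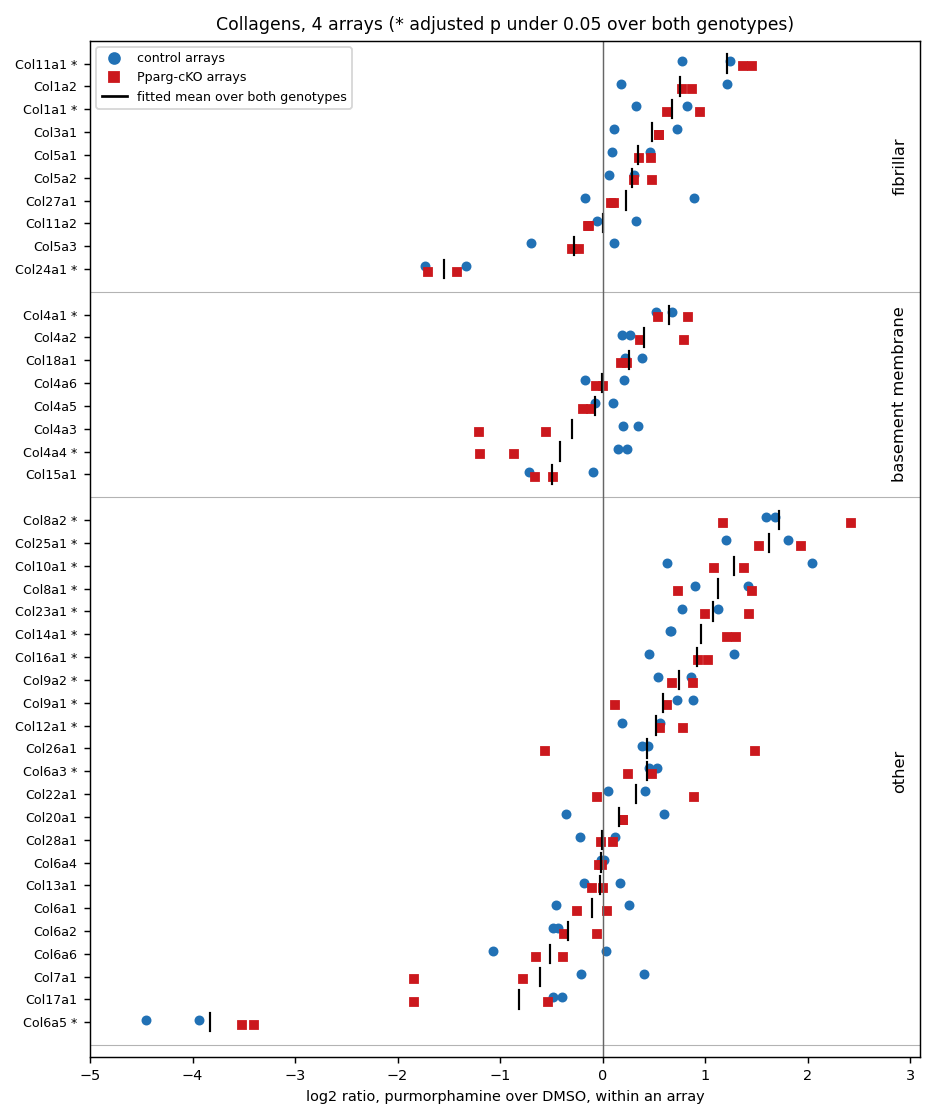
Log2 ratio of purmorphamine over DMSO within each of the 4 arrays (x axis) for the 41 collagens tested (y axis, by class), with points for control arrays, squares for *Pparg-cKO* arrays and a bar for the fitted mean over both genotypes. *Col6a5* stands alone at the left with a fitted mean of -3.83, and *Col4a3* and *Col4a4* have their control points right of 0 and their *Pparg-cKO* squares left of it.

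Fibrillar collagens moved in different directions. *Col11a1* encodes a chain of type XI collagen, which regulates the diameter of fibrils. Its level in control ureters was 8.48 and 8.29 in the male and the female pool with DMSO and 9.25 and 9.53 with purmorphamine. In *Pparg-cKO* ureters it was 8.22 and 8.40 with DMSO and 9.68 and 9.77 with purmorphamine. The 4 purmorphamine pools were all above the 4 DMSO pools, and *Col11a1* rose 2.31-fold (log2 fold change 1.21, SE 0.10, limma adjusted p = 0.0073). *Col1a1*, which encodes the major chain of type I collagen, the most abundant collagen of connective tissue, lay at 14.71 and 14.91 in control with DMSO and at 15.53 and 15.24 with purmorphamine. In *Pparg-cKO* it lay at 14.81 and 14.60 with DMSO and at 15.44 and 15.55 with purmorphamine. The treatments did not overlap, and *Col1a1* rose by 0.68 on the log2 scale (SE 0.12, adjusted p = 0.028), a call that was lost without replicate 1 of control or without replicate 2 of *Pparg-cKO*. *Col1a2*, the partner chain of type I collagen, had a log2 fold change of 0.76 (SE 0.18, adjusted p = 0.056) and was not called. *Col24a1* moved the other way. This gene encodes a fibrillar collagen known from bone and cornea. With DMSO its level was 9.82 and 9.91 in control and 9.58 and 9.97 in *Pparg-cKO*. With purmorphamine it was 8.48 and 8.18 in control and 8.15 and 8.26 in *Pparg-cKO*. All purmorphamine pools were below all DMSO pools, and *Col24a1* fell 2.93-fold (log2 fold change -1.55, SE 0.10, adjusted p = 0.0054), by nearly the same amount in both genotypes (-1.54 and -1.56). It was the only fibrillar collagen with a lower level on all 4 arrays. The remaining fibrillar collagens tested, chains of types III, V, XI and XXVII, were not called.

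Most collagens that attach to fibrils rose. Of the 7 tested of 9, 5 rose and 0 fell by limma (none had an unadjusted p under 0.05 and a lower level), with a median of 0.59 and a range of 0.16 to 0.96. *Col14a1* encodes a collagen on the surface of fibrils in skin, tendon and smooth muscle coats. It lay at 13.22 and 13.54 in control with DMSO and at 13.89 and 14.20 with purmorphamine. In *Pparg-cKO* it lay at 13.34 and 13.49 with DMSO and at 14.55 and 14.79 with purmorphamine. It rose 1.94-fold over both genotypes (log2 fold change 0.96, SE 0.07, limma adjusted p = 0.0062), and the probe with the glycine repeat printed above gave 1.01 (SE 0.08, adjusted p = 0.0064). *Col16a1*, whose product binds fibrils and is made by fibroblasts and smooth muscle cells, rose by 0.92 on the log2 scale (SE 0.15, adjusted p = 0.024). Its other 2 probes tested gave 0.86 and 0.47, and a further probe was at background in all 8 channels. *Col12a1*, a fibril surface collagen of tissues under tension, rose by 0.52 (SE 0.10, adjusted p = 0.034). Of the type IX chains, which decorate cartilage fibrils, *Col9a2* rose by 0.74 (SE 0.09, adjusted p = 0.015) and *Col9a1* by 0.59 (SE 0.11, adjusted p = 0.032). The other probe of *Col9a1* was above background in 3 of 8 channels and in no *Pparg-cKO* pool, and it was not called. *Col9a3*, the remaining chain, was at background in all 8 channels. Of the cartilage markers, 3 of 7 were at background in all 8 channels and 0 of the 3 tested were called.

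The network-forming collagens with short chains rose, all 3 of 3, with a median of 1.28. *Col8a2*, which with *Col8a1* encodes type VIII collagen of vessel walls and of Descemet's membrane of the cornea, lay at 10.82 and 10.82 in control with DMSO and at 12.42 and 12.50 with purmorphamine. In *Pparg-cKO* it lay at 10.89 and 10.15 with DMSO and at 12.06 and 12.56 with purmorphamine. The rise was 3.29-fold (log2 fold change 1.72, SE 0.21, limma adjusted p = 0.015), and its second probe gave 1.01. *Col8a1* rose by 1.13 (SE 0.16, adjusted p = 0.018). *Col10a1*, known from hypertrophic cartilage, rose by 1.28 (SE 0.24, adjusted p = 0.034), with pools that lay apart in several groups (SD 0.72 in control with purmorphamine, 0.79 in *Pparg-cKO* with DMSO and 0.58 in *Pparg-cKO* with purmorphamine).

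Of the 4 collagens that span the membrane, 2 rose. *Col25a1*, whose product is known from developing neurons and muscle, lay at 7.34 and 7.17 in control with DMSO and at 8.54 and 8.98 with purmorphamine. In *Pparg-cKO* it lay at 7.38 and 7.37 with DMSO and at 8.91 and 9.31 with purmorphamine. It rose 3.07-fold (log2 fold change 1.62, SE 0.13, limma adjusted p = 0.0071). Its other 3 probes gave 1.26, 0.52 and 0.33 and were called too, the smallest for the probe with the glycine repeat. *Col23a1* rose by 1.08 (SE 0.11, adjusted p = 0.011). *Col17a1*, the hemidesmosomal collagen of basal epithelial cells, had a lower level on all 4 arrays (log2 fold change -0.81, SE 0.22, adjusted p = 0.076) and was not called, and *Col7a1*, the anchoring fibril beneath such cells, had a log2 fold change of -0.61 and was not called either.

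**Figure D2:**
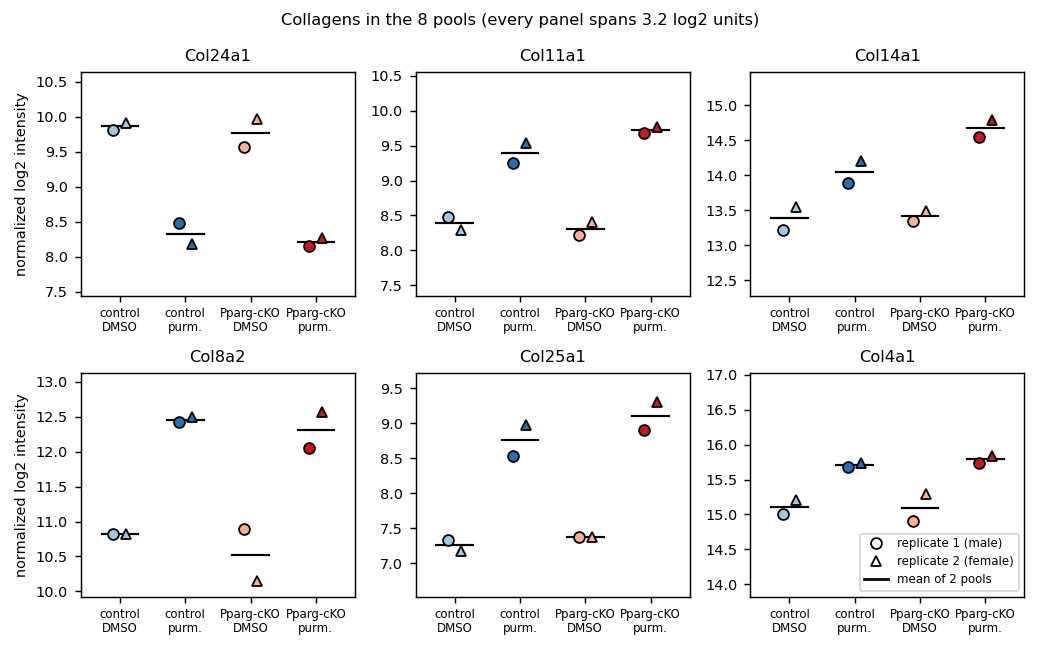
Normalized log2 intensity (y axis, 3.2 log2 units in each panel) of 6 collagens in the 2 pools of each group (x axis; circles for replicate 1, triangles for replicate 2, bars for the mean of 2 pools). *Col24a1* lies lower with purmorphamine in both genotypes, and *Col11a1*, *Col14a1*, *Col8a2*, *Col25a1* and *Col4a1* lie higher, with no overlap between treatments.

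*Col6a5* had the largest change of all collagens. It encodes an alternative chain of type VI collagen, the collagen of beaded microfilaments that link cells to their matrix, and can take the place of the chain from *Col6a3*. Its level in control was 12.18 and 12.90 with DMSO and 8.24 and 8.44 with purmorphamine. In *Pparg-cKO* it was 10.99 and 11.46 with DMSO and 7.58 and 7.94 with purmorphamine. The highest purmorphamine pool lay far below the lowest DMSO pool, and all 8 levels were above background. *Col6a5* fell 18.3-fold in control (log2 fold change -4.20, SE 0.15, limma adjusted p = 0.015) and 11.0-fold in *Pparg-cKO* (-3.46, SE 0.15, adjusted p = 0.011), and 14.2-fold over both (-3.83, SE 0.11, adjusted p = 0.0026). The difference between the genotypes in this effect was 0.73 (SE 0.22, unadjusted p = 0.020, adjusted p = 1.0). The call in control was lost without either control array (adjusted p = 0.052 and 0.093), where only 1 control array remains, while that over both genotypes held without any 1 array. With DMSO, *Col6a5* was 1.31 lower in *Pparg-cKO* than in control on the log2 scale (SE 0.27, adjusted p = 0.052), just outside the threshold, and both replicates were lower (-1.19 and -1.44). With the replicate, which stands for sex and dye, as a block the adjusted p was 0.023. With purmorphamine the difference was -0.58 (SE 0.27, adjusted p = 0.36).

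*Col6a5* was measured by a pair of probes that lie far apart in its transcript, and both are shown because they differ in size of change. The first, used above, starts at base 7670 of the transcript and spans 1360 bases of the genome at chr9:105765145-105766504 on the minus strand of mm9, so that its 60 bases cross a splice junction. The second starts at base 3702 and lies unbroken at chr9:105830400-105830459 on the minus strand. Each has at least 1 reading frame without a stop codon, and no capitals are used.
Col6a5, first probe: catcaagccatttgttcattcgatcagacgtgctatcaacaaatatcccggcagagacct
Col6a5, second probe: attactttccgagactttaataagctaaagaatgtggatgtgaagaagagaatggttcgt
The second probe lay at 6.76 and 7.69 in control and at 6.51 and 6.67 in *Pparg-cKO* with DMSO. With purmorphamine it was not well above background in any of the 4 pools. Its level was therefore at least 1.85-fold lower with purmorphamine in control and at least 1.10-fold lower in *Pparg-cKO*, where the bright group was set against the lowest signals above background. Its fitted log2 fold change over both genotypes was -0.84 (SE 0.16, limma adjusted p = 0.035), and it was called in neither genotype alone.

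**Figure D3:**
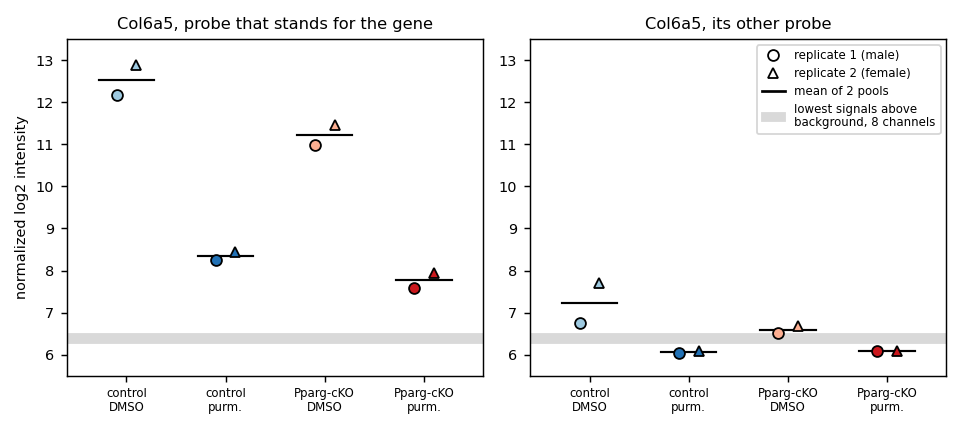
Normalized log2 intensity (y axis) of the probes of *Col6a5* in the 2 pools of each group (x axis; circles for replicate 1, triangles for replicate 2, bars for the mean of 2 pools, grey band for the lowest signals above background). The left probe changes by -4.20 in control and by -3.46 in *Pparg-cKO*, and the right probe lies below the grey band with purmorphamine.

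Of the other chains of type VI collagen 1 rose and 0 fell by limma. *Col6a3* rose by 0.43 on the log2 scale (SE 0.08, limma adjusted p = 0.034). *Col6a2* was lower on all 4 arrays (-0.34, SE 0.09, adjusted p = 0.067) and *Col6a6* on 3 of 4 (-0.52, SE 0.19, adjusted p = 0.15), and neither was called. The other probe of *Col6a2* gave -0.08 over both genotypes and 0.10 in *Pparg-cKO* alone. Without replicate 1 of control *Col6a6* passed the threshold (-0.79, adjusted p = 0.035). *Col6a1* (-0.10) and *Col6a4* (-0.01) were not called. *Col6a5* lies on chromosome 9 between *Col6a6* and *Col6a4* as its nearest protein-coding neighbours in the RefSeq table of GRCm38.p6. *Col6a4* was at 6.66 to 6.96 in all 8 pools, close to the lowest signals above background, so that a decrease of the size seen for *Col6a5* could not have been measured there. *Col6a6*, at 7.52 to 8.90 with DMSO, left room for a smaller decrease than that too.

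Among the collagens of basement membranes, *Col4a1* rose. It encodes a chain of the type IV collagen found in basement membranes throughout the body. In control it was 15.01 and 15.21 with DMSO and 15.68 and 15.73 with purmorphamine. In *Pparg-cKO* it was 14.90 and 15.29 with DMSO and 15.74 and 15.83 with purmorphamine. The treatments did not overlap, and it rose 1.56-fold (log2 fold change 0.64, SE 0.09, limma adjusted p = 0.017). *Col4a2*, its neighbour and partner chain, was higher on all 4 arrays but not called. *Col18a1*, which carries endostatin, was higher on all 4 arrays by 0.25 and *Col15a1*, its relative, lower on all 4 by -0.49 (adjusted p = 0.066), and neither was called. *Col4a5* and *Col4a6*, which are neighbours on chromosome X, stood within 0.1 of 0.

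In each genotype alone fewer collagens were called. In control, 1 of 41 rose (*Col25a1*, 2.84-fold, limma adjusted p = 0.048) and 2 fell (*Col24a1* and *Col6a5*), whereas 0.282% of all genes rose and 0.919% fell. In *Pparg-cKO*, 6 of 41 rose and 3 fell, whereas 1.85% of all genes rose and 2.8% fell. The 6 were *Col8a2* (1.79), *Col25a1* (1.73), *Col11a1* (1.41), *Col14a1* (1.26), *Col23a1* (1.21) and *Col9a2* (0.78), and the 3 were *Col6a5* (-3.46), *Col24a1* (-1.56) and *Col4a4* (-1.03). Of these 9, *Col6a5* alone was called without replicate 2 of *Pparg-cKO*. In control, *Col11a1* (1.00, adjusted p = 0.060) and *Col8a2* (1.64, adjusted p = 0.089) missed the threshold, as did *Col1a2* (0.70) and, of the basement membrane collagens, *Col4a1* (0.60), *Col15a1* (-0.41) and *Col18a1* (0.30). In *Pparg-cKO*, *Col4a3* (-0.88, adjusted p = 0.067), *Col4a1* (0.69, adjusted p = 0.053) and *Col1a2* (0.82) missed it. Median log2 fold changes of the collagens were 0.27 in control and 0.37 in *Pparg-cKO*. The difference of the effect between genotypes was called for 0 of 41 collagens in either direction, as for all genes (0% and 0%). An unadjusted p under 0.05 was found for 2 that were higher and 3 that were lower. The share of all genes at that p is not given, so these 5 are not read as a result about collagens. Those 5 were *Col14a1* (0.59), *Col6a5* (0.73), *Col7a1* (-1.40), *Col4a3* (-1.16) and *Col4a4* (-1.22). Of the fibrillar collagens the largest differences of the effect were those of *Col11a1* (0.41), *Col11a2* (-0.27) and *Col27a1* (-0.26), and those of *Col4a2* (0.35) and *Col17a1* (-0.75) came next in their classes.

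Between the genotypes 2 collagens differed, both of them with DMSO. *Col4a3* and *Col4a4* encode chains that join the product of *Col4a5* in the basement membrane of the glomerulus and of some kidney tubules, and they are neighbours on chromosome 1. With DMSO, *Col4a3* was 6.51 and 6.75 in control and 7.52 and 8.06 in *Pparg-cKO*. With purmorphamine it was 6.86 and 6.95 in control and 6.97 and 6.86 in *Pparg-cKO*. The *Pparg-cKO* pools with DMSO stood above the other 6. *Col4a3* was 2.24-fold higher in *Pparg-cKO* than in control with DMSO (log2 fold change 1.16, SE 0.18, limma adjusted p = 0.023). *Col4a4* was 7.08 and 7.07 in control and 7.92 and 8.18 in *Pparg-cKO* with DMSO, and 7.23 and 7.31 in control and 7.05 and 6.98 in *Pparg-cKO* with purmorphamine. It was 1.96-fold higher in *Pparg-cKO* with DMSO (0.97, SE 0.11, adjusted p = 0.0083), and it fell 2.04-fold with purmorphamine in *Pparg-cKO* (-1.03, SE 0.12, adjusted p = 0.026). These comparisons share the *Pparg-cKO* pools with DMSO. The other probes of *Col4a4* were at background in all 8 channels and were not tested. From the processed signals of the scanner software the differences with DMSO were larger, 2.51 for *Col4a3* and 1.62 for *Col4a4*. Both calls with DMSO were lost without replicate 1 or 2 of control and without replicate 2 of *Pparg-cKO*. Over both genotypes *Col4a4* had a log2 fold change of -0.42 (adjusted p = 0.045), with control arrays higher and *Pparg-cKO* arrays lower.

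Some markers of kidney tubules differed between the same groups as *Col4a3* and *Col4a4*, and others did not. Of 4 such markers, 2 were higher in *Pparg-cKO* than in control with DMSO, and the same 2 fell with purmorphamine in *Pparg-cKO*. *Umod*, which encodes uromodulin of the thick ascending limb, was 7.14 and 6.07 in control and 8.74 and 9.21 in *Pparg-cKO* with DMSO, a fitted difference of 2.37 (SE 0.33, limma adjusted p = 0.014) in which the female control pool was not well above background. With purmorphamine it was 6.02 and 6.07 in control and 6.78 and 6.66 in *Pparg-cKO*, with both control pools not well above background. *Slc12a1*, the sodium, potassium and chloride cotransporter of the same tubule segment, was not well above background in control with DMSO and at least 2.33-fold higher in *Pparg-cKO*, where it was 7.68 and 7.68. *Lrp2* and *Slc34a1* of the proximal tubule were not called, and both were highest in the male control pool with DMSO (7.66 and 7.39). In that pool *Col4a3* was at its lowest level (6.51). The mean level of the 4 markers was 7.63 to 7.78 in *Pparg-cKO* with DMSO, 6.26 to 7.15 in control with DMSO, 6.24 to 6.28 in control with purmorphamine and 6.37 to 6.41 in *Pparg-cKO* with purmorphamine, and 0 of 4 were above background in all 8 channels. The part of such cells in the levels of *Col4a3* and *Col4a4* was not tested.

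**Figure D4:**
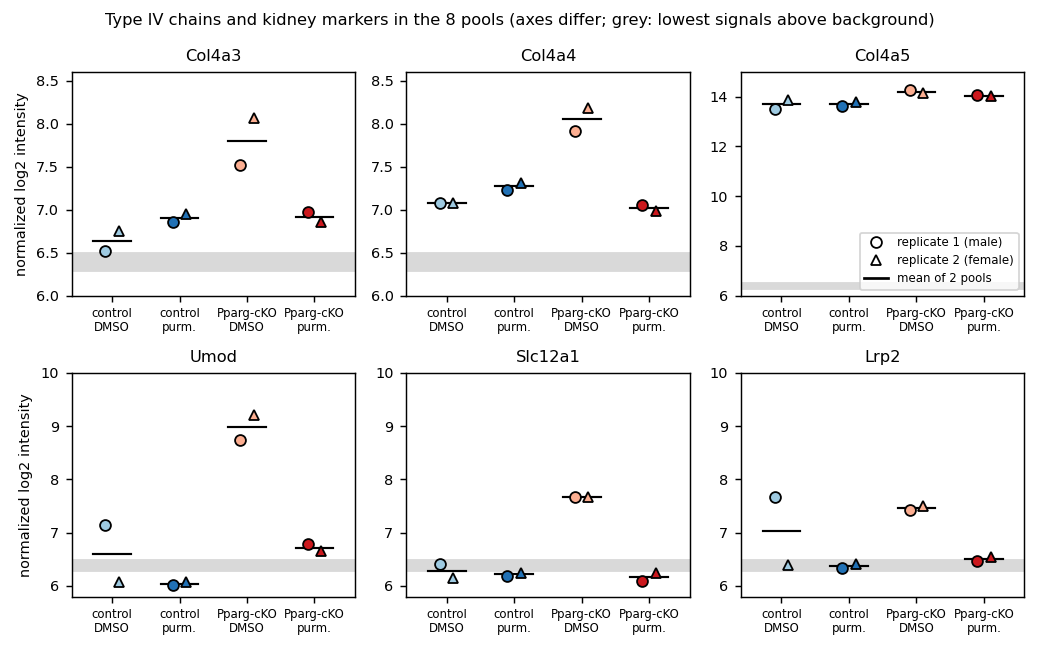
Normalized log2 intensity (y axes, which differ between panels) of *Col4a3*, *Col4a4*, *Col4a5* and of the kidney markers *Umod*, *Slc12a1* and *Lrp2* in the 2 pools of each group (x axis; circles for replicate 1, triangles for replicate 2, bars for the mean of 2 pools, grey band for the lowest signals above background). *Pparg-cKO* pools with DMSO are the highest in the panels of *Col4a3* (7.52 and 8.06), *Col4a4* (7.92 and 8.18), *Umod* and *Slc12a1*, while for *Lrp2* the male control pool with DMSO (7.66) is the highest.

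No other collagen was called between the genotypes by the probe that stands for it. With DMSO 2 of 41 collagens were higher and 0 lower by limma (3 of them lower with an unadjusted p under 0.05), whereas 1.91% of all genes were higher and 1.77% lower, and the collagens had a median of -0.06. Of those not called, *Col17a1* (1.07, adjusted p = 0.20), *Col7a1* (1.06, adjusted p = 0.19), *Col4a5* (0.51, adjusted p = 0.12) and *Col13a1* (0.57, adjusted p = 0.10) had the largest positive values. Negative values included those of *Col6a5* (-1.31) and of *Col23a1*, whose 3 probes gave -0.91 to -0.54 and were not called. Without normalization between arrays *Col23a1* passed the threshold (-1.07, limma adjusted p = 0.048). Fibrillar collagens had the smallest range of the 3 classes, from -0.19 for *Col5a3* and -0.18 for *Col5a2* to 0.12 for *Col11a2*. With purmorphamine 0 of 41 were called by limma in either direction, whereas 1.15% of all genes were higher and 1.71% lower. The median was -0.07. With an unadjusted p under 0.05, 5 were higher and 2 lower. For the counts at an unadjusted p, here and with DMSO, no share of all genes is given. The rule of the methods, an intensity above 100 and a change of at least 1.5-fold in both replicates, named other genes. With DMSO, *Col7a1* was higher and *Col6a5* lower by that rule, and neither *Col4a3* nor *Col4a4* met it. With purmorphamine, *Col14a1* was higher and *Col23a1* lower by it. The values from limma with purmorphamine were 0.63 (SE 0.16, adjusted p = 0.11) for *Col14a1* and -0.64 (SE 0.20, adjusted p = 0.18) for *Col23a1*. The second probe of *Col14a1*, the one with the glycine repeat, was 0.83 higher (adjusted p = 0.017), and 1 of the 4 probes of *Col25a1* was 0.65 higher (adjusted p = 0.037). The largest values of the fibrillar and basement membrane classes were *Col11a1* (0.33), *Col27a1* (-0.29), *Col5a1* (0.25), *Col4a6* (0.39), *Col15a1* (-0.34) and *Col4a5* (0.34).

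Markers of several cell types moved with purmorphamine too. Over both genotypes, markers of mesenchyme rose in 5 of 8 cases (median 0.52) and of smooth muscle in 7 of 8 (median 0.76). Markers of endothelium rose in 4 of 6 cases (median 0.90) and of the urothelium in 6 of 10 (median 0.58). Those of leukocytes fell in 4 of 6 (median -0.67). Of all genes tested, 5.99% rose and 7.51% fell. The mean level of the mesenchymal markers was 13.86 to 14.00 in the DMSO pools and 14.31 to 14.52 in the purmorphamine pools. That of the smooth muscle markers was 14.08 to 14.51 with DMSO and 14.95 to 15.18 with purmorphamine. All of these mesenchymal and smooth muscle markers were above background in all 8 channels. Among the urothelial markers, those of basal cells did not rise on average. *Krt5* had a mean level of 16.64 with DMSO and 16.44 with purmorphamine in control, and of 16.84 and 15.62 in *Pparg-cKO*. *Trp63*, also a marker of intermediate cells, had 14.16 and 14.16 in control and 13.64 and 13.05 in *Pparg-cKO*. Fat cell markers were called in 0 cases by limma, and their mean level was 10.27 in replicate 1 of *Pparg-cKO* with purmorphamine against 12.42 to 14.02 in the other 7 pools. The part of these cell types in the change of the collagens was not tested.

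Genes that make, process, bind or sense collagen were read beside the collagens. Of 55 such genes 54 were tested. Over both genotypes 11 rose and 2 fell (median 0.21), in control 2 rose and 1 fell, and in *Pparg-cKO* 6 rose and 1 fell, to be set against the shares of all genes above. Those whose products bind fibrils rose most often, 6 of 13 with a median of 0.48. The largest values were those of *Fmod*, *Ogn* and *Omd*, which encode small leucine-rich proteoglycans of the fibril surface. *Fmod*, for fibromodulin, was 10.44 and 10.27 in control with DMSO and 12.03 and 11.73 with purmorphamine. In *Pparg-cKO* it was 11.13 and 9.90 with DMSO and 13.22 and 12.22 with purmorphamine. It rose by 1.86 on the log2 scale (SE 0.08, limma adjusted p = 0.0033). *Ogn*, which encodes osteoglycin, rose by 1.90 (SE 0.13, adjusted p = 0.0057) and *Omd*, which encodes osteomodulin, by 1.93 (SE 0.26, adjusted p = 0.017). With DMSO *Omd* lay near the lowest signals above background, at 6.97 and 6.85 in control and at 6.85 and 6.46 in *Pparg-cKO*. The last of these pools was not well above background, so the size of the rise of *Omd* is uncertain. *Prelp* (0.58), *Lum* (0.43) and *Thbs2* (0.64) rose less. The related *Dcn* (0.49), *Kera* (0.40), *Bgn* (0.32) and *Podn* (0.11) were not called. The collagen receptors *Itga11* (1.09, SE 0.13, adjusted p = 0.014), an integrin chain that binds type I collagen, and *Ddr2* (0.41) rose, and *Lair1* (-0.45), an inhibitory receptor of leukocytes, fell.

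Removal of the propeptides is the step between procollagen and the fibril, and its genes went both ways. *Pcolce2*, which encodes an enhancer of the protease that trims the carboxy end, was 12.52 and 12.11 in control with DMSO and 9.93 and 9.64 with purmorphamine. In *Pparg-cKO* it was 11.77 and 12.54 with DMSO and 9.49 and 9.92 with purmorphamine. The treatments did not overlap, and it fell by 2.49 on the log2 scale (SE 0.09, limma adjusted p = 0.0026). *Adamts2*, which encodes the protease of the amino end, rose by 0.59 (SE 0.07, adjusted p = 0.015). Enzymes that cross-link collagen were called in 0 of 5 cases by limma. With an unadjusted p under 0.05, 2 of them were higher and 1 lower, and no share of all genes at that p is given. Of the enzymes that modify the chains 1 of 14 rose, *P3h3* by 0.32. *P4ha3*, which encodes a catalytic subunit of prolyl 4-hydroxylase, was the only one of the 54 that differed between the genotypes. It was 7.05 to 7.14 in the 4 control pools and 7.85 to 8.14 in the 4 *Pparg-cKO* pools, 0.90 higher with either treatment (adjusted p = 0.014 with DMSO and 0.020 with purmorphamine).

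**Figure D5:**
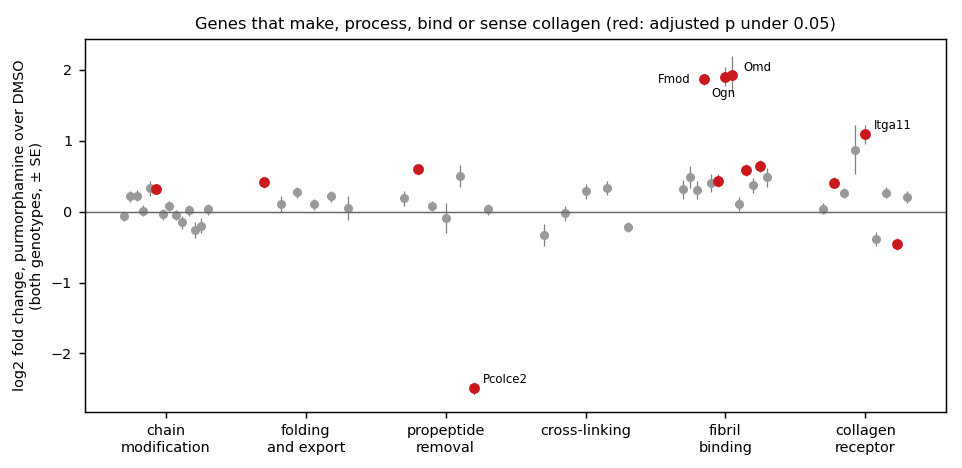
Log2 fold change of purmorphamine over DMSO over both genotypes (y axis, fitted value with SE) for 54 genes that make, process, bind or sense collagen, by their role (x axis), in red where the adjusted p was under 0.05. *Omd*, *Ogn* and *Fmod* lie at 1.93, 1.90 and 1.86, and *Pcolce2* at -2.49 is the lowest.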

How the data were processed

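RNA of 8 pools was measured on 4 two-color Agilent arrays. Per the file headers, the deposited mean intensity of a spot and the intensity of its local background are unnormalized for both dyes, and the processed intensity was background-subtracted and dye-normalized by the scanner software (Agilent Feature Extraction, 10.7.3.1 in the submitters' processing notes). As deposited, the log10 ratio sets red against green processed signals and served to check the dyes. The authors' table of the series holds a score per probe, a fold change with a sign (purmorphamine against DMSO) rounded to 1 decimal, whose normalization and scale are not stated.

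Mean intensities were corrected by normexp (offset 50) and loess with limma version 3.58.1 (R version 4.3.3, data.table version 1.17.8). Control spots had weight 0 in loess and outlier spots were left out. The spots of a probe were averaged, and arrays were normalized by Aquantile. Arrays had a median background of 21 to 22 (AlexaFluor555) and 65 to 76 (AlexaFluor647). The genotypes were compared by fitting the channels separately (intraspot correlation 0.0648, from 4000 probes), and treatments by the log ratio within arrays with a coefficient per genotype. The spread was estimated over all groups together. A probe was tested if more than 50% of its spots were well above background in each of the 2 pools of a group, p was adjusted by Benjamini-Hochberg over all of them, and the brightest probe tested stood for its gene. Having 2 pools a group limits the precision.

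Collagens named with values are *Col6a5*, all past the threshold with both replicates alike, and the 3 with the largest change in each class and comparison. Of the genes for collagen synthesis and binding, up to 6 past the threshold are named for each comparison. The others named are neighbours, other chains of a named type or markers. A kidney marker of the list is not reported here. The members and lists were chosen with earlier results of these data known. Figures were drawn with matplotlib 3.10.9 and pandas 2.3.3 in Python 3.11.15. Alternatives were the processed signals, no background correction, no or quantile normalization between arrays, all probes, probes above background in all 8 channels, the mean of a gene's probes, each replicate left out, the replicate block, the table of the series and the rule of the methods. The fits were run on simulated data with known changes, drawn independently for each channel without effects of array, sex or dye. Such data cannot show how those effects bear on the calls, and no outcome is given here.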

Additional observations from a re-analysis of the deposited data

Results flagged for a closer look

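The effect of purmorphamine on *Col4a3* and *Col4a4*, chains of the type IV collagen of the glomerular basement membrane, had opposite directions in the genotypes on every array. For *Col4a3* the log2 ratio of purmorphamine over DMSO was 0.35 and 0.20 on the control arrays and -0.55 and -1.21 on the *Pparg-cKO* arrays. The effect in *Pparg-cKO* minus that in control was -1.16 (limma unadjusted p = 0.0058, adjusted p = 1.0). For *Col4a4* the log2 ratio was 0.15 and 0.24 on the control arrays and -0.86 and -1.19 on the *Pparg-cKO* arrays, and the difference was -1.22 (unadjusted p = 0.00090, adjusted p = 0.98). Neither difference passed the correction over all probes tested. Of 4 kidney markers, 2 were higher in the *Pparg-cKO* pools with DMSO that enter these ratios, and their part in them was not tested.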

How the results depend on the processing

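The calls above, and *Col6a5* where it was not called, were followed under each alternative. Of 381 such values, 280 stayed on the same side of the threshold, 98 lost the call, 3 gained it (all *Col6a5*) and 0 changed direction. Other collagens are not in these counts. The following are counts of collagens called by limma or by the rule of the methods, where they differed by over 1.5 times. Between the genotypes with DMSO, 2 became 4 with no normalization between arrays and 0 to 2 with a replicate left out. With purmorphamine, 0 became 1 for the mean of all probes of a gene (*Col14a1*) and 2 by the rule of the methods. In control, the 3 calls of purmorphamine became 1 from the processed signals, 0 with all probes tested, 9 by the rule of the methods and 0 to 7 with a replicate left out (0 without either control array, 7 without either *Pparg-cKO* array). In *Pparg-cKO*, 9 became 4 with all probes tested and 1 to 13 with a replicate left out (1 without replicate 2 of *Pparg-cKO*). Over both genotypes, 17 became 11 with all probes tested, 8 by the rule of the methods and 11 to 17 with a replicate left out. Without either *Pparg-cKO* array, control gained *Col8a1*, *Col8a2*, *Col11a1* and *Col23a1*. Single arrays left in a group were assumed to vary like the others, and the intraspot correlation of all arrays was kept. For the effect in control, the fits without either *Pparg-cKO* array took the spread from the same 2 control arrays. They gave the same values and are not separate checks. The table of the series gave 0 calls in control, 0 in *Pparg-cKO* and 0 over both genotypes, and 0 over both genotypes among all 27066 probes, of which 1677 had no spread in its rounded values. Counts for the difference of the effect between genotypes were 0 under every alternative run. Beyond fewer arrays or more probes tested, the cause of these shifts was not tested. *Col6a5* passed the threshold between the genotypes with DMSO without background correction (adjusted p = 0.038) or between-array normalization (adjusted p = 0.038) and with the replicate block (adjusted p = 0.023), in a range over its alternatives of 0.023 to 0.46.

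The replicate numbers share only sex and dye. With the replicate block the 6 counts were 3, 0, 4, 10, 19 and 0, against 2, 0, 3, 9, 17 and 0. The block added *Col6a5* between the genotypes with DMSO, *Col8a1* in control, *Col7a1* and *Col8a1* in *Pparg-cKO*, and *Col1a2*, *Col7a1* and *Col15a1* over both, and it removed *Col9a2* in *Pparg-cKO* and *Col4a4* over both. Deviations of pools with the same number correlated at -0.17 with DMSO and 0.48 with purmorphamine, and with the numbers crossed, an alternative chosen after seeing the data, the genotypes with DMSO gave 0 calls.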

Other observations

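A binding sequence of GLI factors, the transcription factors of SHH signaling, was looked for in the promoters of the collagens. The letters searched were GACCACCCA and its reverse complement TGGGTGGTC, in windows of 250 bases before to 50 bases after the start of each gene in RefSeq. They were found in 0 of 38 windows of 35 collagen genes and in 83 of all 32851 windows (0.253%). No match says only that these letters are not in these windows.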
